A study of Rattus norvegicus with 6 samples.

Results

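Transcripts of 33 genes of fatty acid oxidation were measured in the renal cortex of rats given N-nitrosodimethylamine (NDMA) and of rats given water. The genes encode the enzymes that move fatty acids into mitochondria and break them down there, the enzymes of the parallel pathway in peroxisomes, and several genes that respond to the same fatty acid sensor. All 33 had at least 1 probe whose accession is a RefSeq transcript of the gene, out of 15284 genes with a RefSeq name on the array, and 49 of the 61657 non-control probes belonged to them. All 49 probes were well above background on all 6 arrays and passed the filter on dim probes. The members were divided into 19 mitochondrial enzymes, 8 peroxisomal enzymes and 6 others, which act in the cytosol, in more than 1 organelle or outside beta-oxidation.

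The animals were male Sprague-Dawley rats, Crl:CD(SD), bought at 5 weeks of age. All had tap water and a basal diet freely. The 3 controls were dosed with water for 4 weeks. The other 3 received NDMA at 4 mg/kg/day over the same 4 weeks. NDMA is a nitrosamine carcinogen whose metabolites methylate DNA. RNA of each animal was labelled with Cy3 and hybridised to its own 1-colour Agilent array. How the dose was given is not stated in the labels, and whole cortex was taken, so in these bulk samples fewer cells of a type and less RNA per cell cannot be told apart.

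The kidney cortex is built mostly of proximal tubules, which reabsorb most of what the glomeruli filter and fuel that work largely by burning fatty acids. A long-chain fatty acid is joined to coenzyme A, carried into the mitochondrion as a carnitine ester, and shortened in cycles of dehydrogenation, hydration, a second dehydrogenation and thiolysis, with electrons passed on through the electron transfer flavoprotein. Peroxisomes run a similar cycle on very long and branched chains with an oxidase at the first step, and hand shortened products on to mitochondria. Many of these genes are induced by the nuclear receptor PPAR alpha, encoded by Ppara.

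The arrays gave between 43016 and 46248 probes well above background, and between 0 and 4 saturated spots. Slide 1 carried the 3 controls together with NDMA animal 1, and slide 2, scanned on another day, carried NDMA animals 2 and 3. All 16 proximal tubule markers examined, among them Lrp2, Cubn and Slc34a1, were well above background in both groups, and the parvalbumin gene Pvalb, a marker of the distal tubule, was not well above background on any array. Values below are normalised log2 signals, where 0 is the 75th percentile of an array, and differences are NDMA minus control. Across all 31915 features tested with limma, which are genes or unnamed transcripts, 957 (3%) had an adjusted p below 0.05. They comprised 805 higher features (2.52%) and 152 lower ones (0.476%). That count was 364, 520 and 505 without controls 1, 2 and 3 in turn, 458 and 367 without NDMA animals 2 and 3, and it was 67 with the slide as a block. With normexp background correction 1091 features passed, 66.7% of them higher, against 84.1% here.

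None of the 33 genes passed the limma test at an adjusted p under 0.05. At an unadjusted p under 0.05, 10 of the 33 were lower after NDMA (30.3%, against 10.3% of all features) and 0 were higher. That count of 10 varied with the animal left out and with the processing. It was 2, 5 and 6 without controls 1, 2 and 3, and 9, 4 and 6 without NDMA animals 1, 2 and 3. It was 3 with quantile normalisation and 1 when the slide was a block, a fit that rests on NDMA animal 1. With normexp it was 9, with the median of each array 11, and with a trended and robust variance 14. Over all features, 5988 had an unadjusted p under 0.05 in either direction. That number was 4309 without control 1, 4323 without NDMA animal 2 and 6103 with quantile normalisation. The differences were small and mostly on 1 side: 26 of 33 genes had a difference below 0 (78.8%, against 58.7% of all features), and the median was -0.19, against -0.05 for all features. The lowest was -0.54 for Acadsb and the highest 0.22 for Acox2. In 12 genes (36.4%) all 3 NDMA animals lay below all 3 controls, where 16.5% of all features did so, and in 0 genes did they lie above them, where 11.1% of all features did so. Of the 49 probes, 41 had a difference below 0 and 1 passed in a fit over all 43118 probes (2.99% of probes passed, and 0.485% as lower), a probe of Crat. At an unadjusted p under 0.05, 9.82% of all probes were lower.

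**Figure D1:**
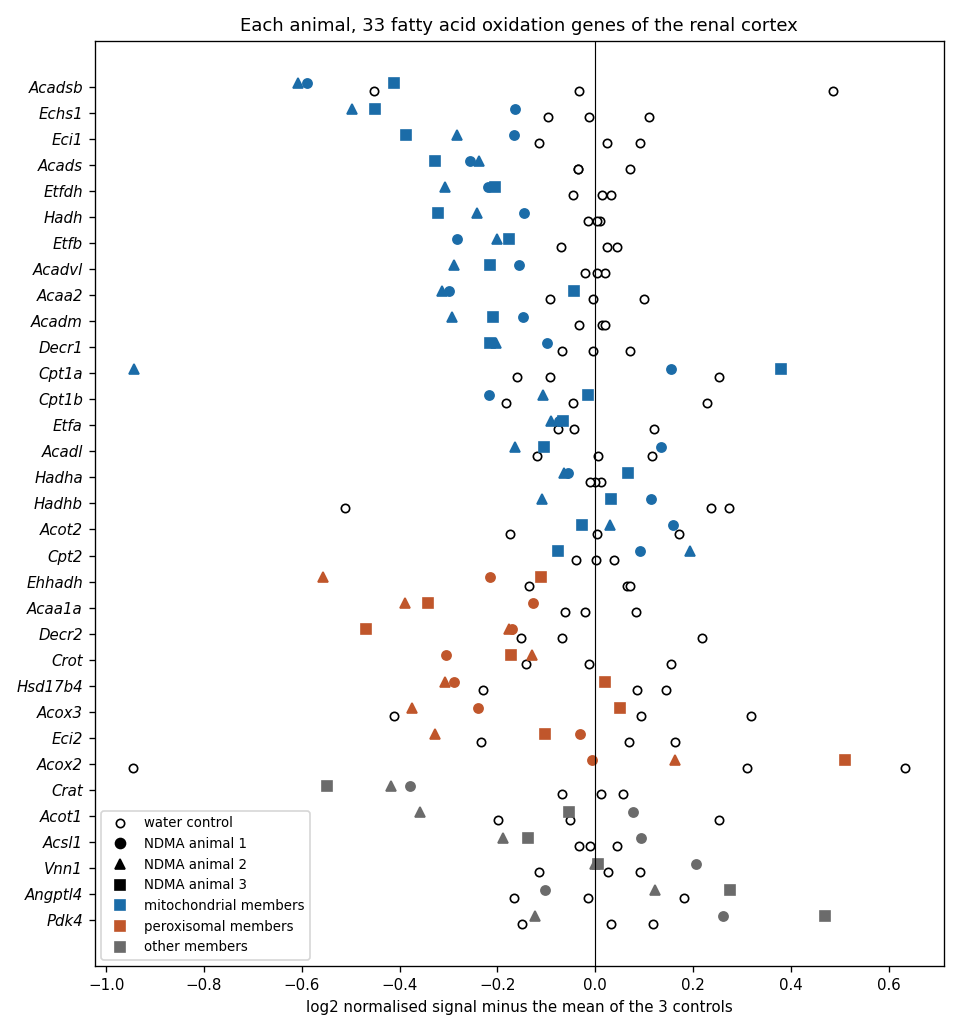
The normalised log2 signal of each animal minus the mean of the 3 controls (horizontal axis) is plotted for each of the 33 genes (rows), with open circles for controls and filled symbols for NDMA animals 1 to 3, coloured by compartment. Filled symbols lie left of all open circles in 12 rows, such as Crat, Acads and Echs1, and on both sides of 0 in rows such as Cpt1a and Acox2.

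Carnitine acetyltransferase, encoded by Crat, transfers acetyl groups between coenzyme A and carnitine in mitochondria and peroxisomes. Its log2 signal was 6.59, 6.63 and 6.51 in controls 1 to 3 and 6.20, 6.16 and 6.03 in NDMA animals 1 to 3. The groups did not overlap, and the difference of -0.45 ± 0.09 (SE, n = 3 per group; 1.36-fold lower) had the smallest adjusted p among the 33 genes in limma, 0.0538, just above the threshold. A second Crat probe read 2.51, 2.50 and 2.28 in the controls and 1.90, 1.85 and 1.98 after NDMA. This probe differed by -0.52 ± 0.10 and passed over all probes (adjusted p = 0.0485 in limma). Within the controls' slide, where NDMA animal 1 stood against the 3 controls, the brighter probe differed by -0.38. Over 19 alternatives its adjusted p in limma ran from 0.0135 to 0.391, and it passed in 3 of them, namely normexp background correction with the 75th percentile, the mean over both probes, and a trended and robust variance.

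The gene Cpt1a encodes the liver-type carnitine palmitoyltransferase of the outer mitochondrial membrane, the rate-limiting enzyme of the pathway. It read 2.89, 3.23 and 2.82 in the controls and 3.13, 2.04 and 3.36 after NDMA. NDMA animal 2 lay far below the other 5 animals, which overlapped, so the difference of -0.14 had a wide 95% interval of -0.97 to 0.70. Without NDMA animal 2 the difference was 0.27. The muscle-type isoform gene Cpt1b differed by -0.11 (interval -0.42 to 0.20), and its 3 probes gave -0.07, -0.11 and -0.15. These probes were far apart in level. In the controls the probe used read 2.00 to 2.41, and the others read -3.87 to -3.43 and -5.08 to -4.65. Why the levels differ was not tested. Cpt2, whose product rebuilds acyl-CoA inside the mitochondrion, differed by 0.07 (interval -0.16 to 0.30). Crot, which encodes the peroxisomal carnitine octanoyltransferase, read 3.38, 3.21 and 3.08 in the controls and 2.92, 3.09 and 3.05 after NDMA, with a difference of -0.20 (interval -0.46 to 0.06). The Crot groups overlapped through control 3 and NDMA animal 2.

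Acsl1 encodes a long-chain acyl-CoA synthetase, which activates fatty acids before they enter either organelle. Its brightest probe differed by -0.08 (interval -0.32 to 0.16), and its other 3 probes by -0.28, -0.22 and -0.04, and none passed.

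Among the acyl-CoA dehydrogenases, which carry out the first oxidation in the mitochondrion and differ in the chain length they prefer, the short-chain, medium-chain and very-long-chain enzymes had lower values in every NDMA animal than in any control. For Acads, the short-chain enzyme, the controls read 5.57, 5.57 and 5.68 and the NDMA animals 5.35, 5.37 and 5.28. Its difference was -0.27 ± 0.08 (interval -0.46 to -0.08, adjusted p = 0.149 in limma). Acadm, the medium-chain enzyme, read 6.30, 6.35 and 6.35 in the controls and 6.19, 6.04 and 6.13 after NDMA, a difference of -0.22. Acadvl, the very-long-chain enzyme, read 4.36, 4.35 and 4.32 in the controls and 4.19, 4.06 and 4.13 after NDMA, also a difference of -0.22, and -0.19 by its other probe. The long-chain enzyme gene Acadl did not share this pattern. It read 6.14, 6.38 and 6.27 in the controls and 6.39, 6.10 and 6.15 after NDMA, so the groups overlapped, and its difference of -0.05 (interval -0.32 to 0.23) turned to 0.04 with quantile normalisation and to 0.13 on the controls' slide alone. Acadsb, the enzyme for short branched chains, had the largest difference of the 33 at -0.54, with an interval of -1.10 to 0.02. Control 2, at -1.37, lay within the NDMA range of -1.53 to -1.33, while controls 1 and 3 were at -0.43 and -0.95.

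Electrons from these dehydrogenases pass to the electron transfer flavoprotein and from there to its oxidoreductase in the inner membrane. The oxidoreductase gene Etfdh read 3.54, 3.56 and 3.48 in the controls and 3.31, 3.22 and 3.32 after NDMA, a difference of -0.24 ± 0.08 without overlap (adjusted p = 0.178 in limma). Etfb, the beta subunit, read 6.32, 6.34 and 6.22 in the controls and 6.01, 6.09 and 6.12 after NDMA, a difference of -0.22 without overlap. Etfa, the alpha subunit of the same dimer, differed by -0.08 (interval -0.28 to 0.13), and its groups overlapped.

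At the later mitochondrial steps, Echs1, the short-chain enoyl-CoA hydratase, read 6.83, 6.71 and 6.63 in the controls and 6.56, 6.23 and 6.27 after NDMA. All NDMA animals were below all controls, NDMA animals 2 and 3 by more than NDMA animal 1, and the difference of -0.37 ± 0.12 (adjusted p = 0.180 in limma) was -0.16 on the controls' slide alone. Hadh, which encodes the short-chain 3-hydroxyacyl-CoA dehydrogenase, read 7.50, 7.53 and 7.52 in the controls and 7.37, 7.28 and 7.20 after NDMA. That was a difference of -0.24, and -0.20 by its other probe. The isomerase gene Eci1, which shifts the double bond of unsaturated chains, had a difference of -0.28 and the reductase gene Decr1, which also serves unsaturated chains, one of -0.17, both without overlap of the groups. Acaa2, the mitochondrial thiolase, differed by -0.22 (interval -0.48 to 0.04), with NDMA animal 3 at 6.03 inside the control range of 5.98 to 6.18.

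The trifunctional protein of the inner membrane, which performs the last 3 steps for long chains, is built from the products of Hadha and Hadhb. Hadha read 3.48, 3.46 and 3.45 in the controls and 3.41, 3.40 and 3.53 after NDMA, a difference of -0.02 with a narrow interval of -0.21 to 0.17. Its other 2 probes differed by -0.03 and -0.15. Hadhb read 2.81, 2.77 and 2.02 in the controls and 2.65, 2.43 and 2.57 after NDMA, a difference of 0.01 with a wide interval of -0.52 to 0.55, which was -0.24 without control 3. The last mitochondrial member, the acyl-CoA thioesterase gene Acot2, differed by 0.05 by its brighter probe and by -0.16 by the other, and was the only member with several probes whose probes differed in sign.

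The 2 trifunctional protein genes are transcribed away from each other. In the RefSeq promoter table for rat assembly GRCr8 their start sites lie 301 bases apart on chromosome 6. By the RefSeq gene record Hadhb reaches to 31907557, so the first of the bases shown lie inside that gene. The 200 bases that belong to the window before both start sites are shown (GRCr8 chr6:31907551-31907750, forward strand, Hadha downstream on the forward strand). Whether they act on both genes was not tested. Capitals mark a GC box, GGGCGG on either strand.
Hadha-Hadhb: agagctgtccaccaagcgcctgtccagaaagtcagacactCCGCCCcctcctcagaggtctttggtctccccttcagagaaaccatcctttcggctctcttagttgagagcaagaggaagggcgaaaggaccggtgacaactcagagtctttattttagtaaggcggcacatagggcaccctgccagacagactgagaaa

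**Figure D2:**
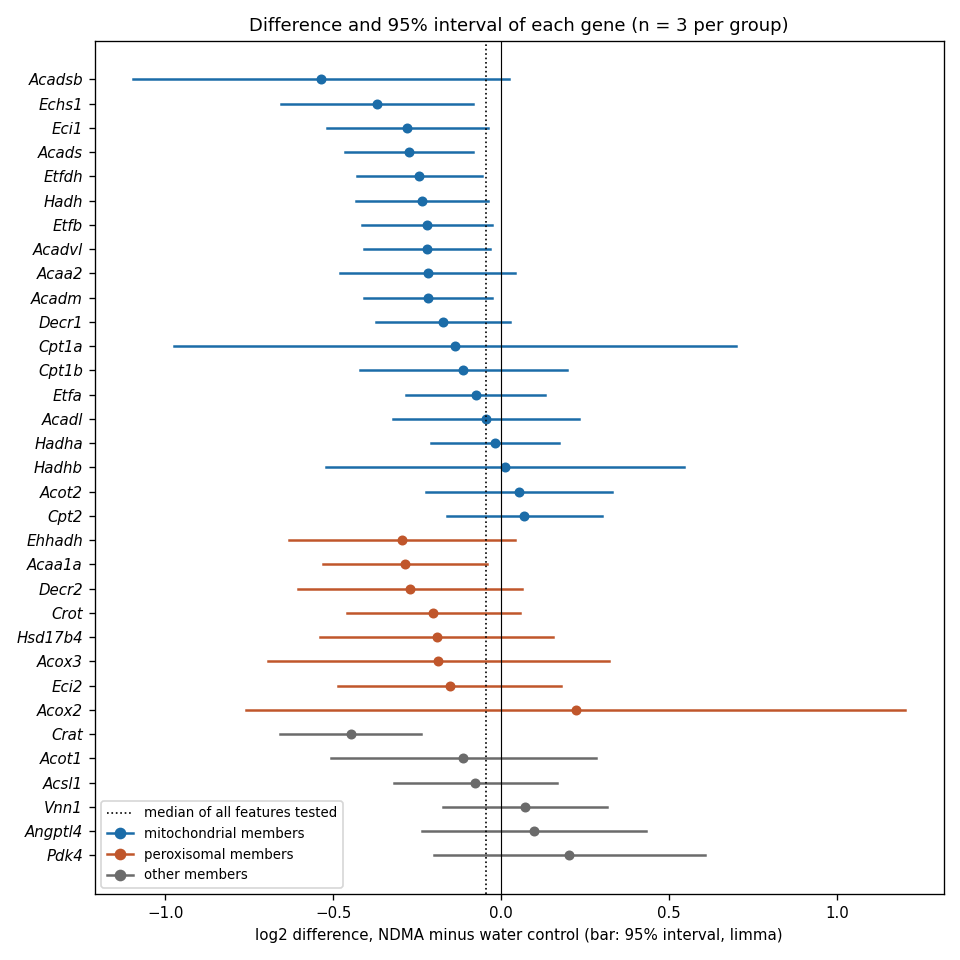
The log2 difference, NDMA minus control (horizontal axis), is plotted for each gene as a point with its 95% interval from limma as a bar, coloured by compartment, and the dotted line marks the median of all features at -0.05. The intervals exclude 0 for 10 genes, all on the lower side, and the widest are those of Cpt1a, Acadsb, Hadhb and Acox2.

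Of the 8 peroxisomal enzymes, 7 had a difference below 0, and their standard errors ran from 0.10 to 0.41. Acaa1a, a peroxisomal thiolase, read 6.58, 6.54 and 6.69 in the controls and 6.47, 6.21 and 6.26 after NDMA. The groups did not overlap, and the difference was -0.29 ± 0.10 (adjusted p = 0.209 in limma). Its other 2 probes differed by -0.45 and -0.33, also without passing. Acaa1a has a close relative, Acaa1b, which differed by -0.33, and binding of the relative's transcripts to these probes was not tested.

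Ehhadh, the peroxisomal enzyme that joins the hydration and dehydrogenation steps in 1 protein, read 3.42, 3.43 and 3.22 in the controls and 3.14, 2.80 and 3.25 after NDMA. NDMA animal 3 lay inside the control range, and the difference was -0.29 (interval -0.63 to 0.04). Hsd17b4, which encodes the other such enzyme, for branched chains and bile acid precursors, read 6.26, 6.32 and 5.95 in the controls and 5.89, 5.87 and 6.20 after NDMA, a difference of -0.19 with overlapping groups, and -0.26 by its other probe. Decr2, the peroxisomal counterpart of Decr1, read 3.16, 2.79 and 2.88 in the controls and 2.77, 2.77 and 2.47 after NDMA, which did not overlap, with a difference of -0.27. Eci2, an isomerase found in peroxisomes and mitochondria, differed by -0.15 and its groups overlapped.

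The oxidases Acox2 and Acox3, which act on branched chains and bile acid precursors, were the dimmest members. Acox2 read -3.64, -3.31 and -4.89 in the controls and -3.95, -3.78 and -3.44 after NDMA. Control 3 lay below all other animals, and the difference of 0.22 (interval -0.76 to 1.20) was -0.25 without it and -0.14 with normexp background correction. Acox3 differed by -0.19 (interval -0.70 to 0.32).

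**Figure D3:**
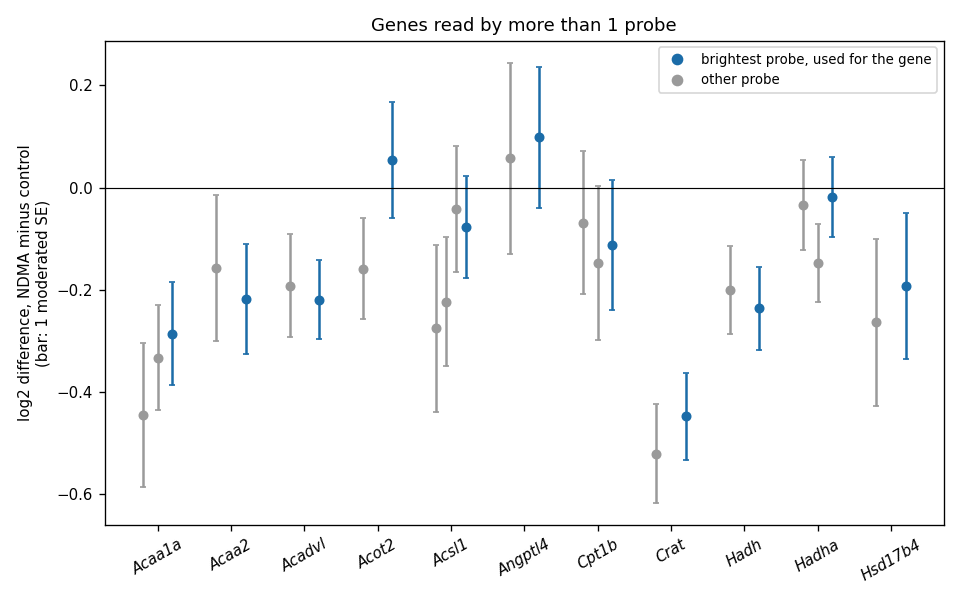
For the 11 genes read by more than 1 probe, the log2 difference of each probe (vertical axis, NDMA minus control) is plotted with 1 moderated standard error as a bar. Blue marks the brightest probe and grey the others. All probes of a gene lie on the same side of 0 in 10 genes, and both Crat probes lie lowest, at -0.45 and -0.52.

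The median difference was -0.22 over the 19 mitochondrial enzymes and -0.20 over the 8 peroxisomal enzymes, so the compartments were 0.02 apart, well within the spread of 0.09 (SD) between animals for that gap. Below 0 were 16 of 19 mitochondrial and 7 of 8 peroxisomal genes, and the groups did not overlap in 9 (47.4%) and 2 (25%) of them. Of all features 58.7% were below 0 and 16.5% were lower without overlap. The medians of the deviations from the control mean over the mitochondrial genes were 0.01, 0.00 and -0.05 in controls 1 to 3 and -0.15, -0.24 and -0.18 in NDMA animals 1 to 3, which did not overlap. Over all features the NDMA medians, from -0.05 to -0.03, did not overlap the control medians either. Over the peroxisomal genes they were 0.12, 0.03 and -0.14 in the controls and -0.19, -0.32 and -0.11 after NDMA, where NDMA animal 3 lay above control 3. On the controls' slide alone the medians were -0.15 and -0.19. With quantile normalisation they were -0.12 and -0.17, against -0.04 for all features, so the size of the mitochondrial median depended on the scaling while its sign did not. The gap between the compartments ran from -0.07 to 0.06 over all alternatives and changed sign among them.

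**Figure D4:**
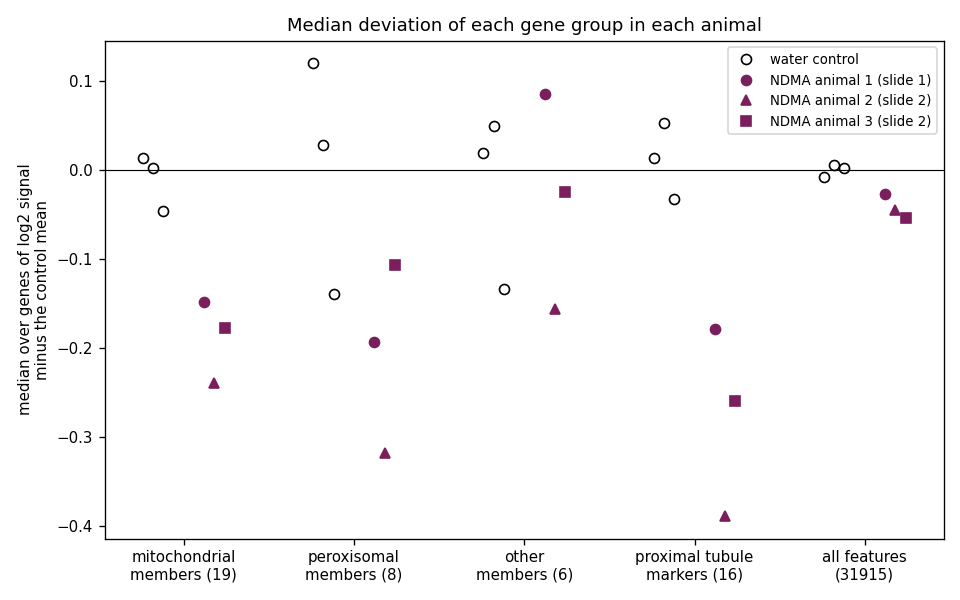
For each animal, the median over a gene group of the log2 signal minus the control mean (vertical axis) is plotted for mitochondrial, peroxisomal and other members, proximal tubule markers and all features. Open circles are controls and filled symbols NDMA animals. The NDMA animals lie below all controls for the mitochondrial members (-0.24 to -0.15), the proximal tubule markers and, by less, all features (-0.05 to -0.03), and overlap the controls for the peroxisomal and other members.

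The 6 other members had a median of -0.0033. Besides Crat and Acsl1 they are mostly genes that PPAR alpha or fasting induces. Pdk4 encodes a kinase that blocks pyruvate oxidation when fatty acids are used. It read -1.51, -1.59 and -1.77 in the controls and -1.36, -1.75 and -1.15 after NDMA, a difference of 0.20 (interval -0.20 to 0.61), with NDMA animals 1 and 3 above all controls and NDMA animal 2 among them. Angptl4, a secreted inhibitor of lipoprotein lipase, read 4.92, 4.72 and 4.57 in the controls and 4.63, 4.86 and 5.01 after NDMA. Its difference of 0.10 (interval -0.23 to 0.43) was -0.10 on the controls' slide alone. Vnn1, a pantetheinase of the cell surface, differed by 0.07 (interval -0.17 to 0.31). Acot1, a cytosolic thioesterase beside Acot2 on the chromosome and close to it in sequence, differed by -0.11 (interval -0.51 to 0.28). For 24 of the 33 genes the interval lay within a 1.5-fold change in either direction; the exceptions were Cpt1a, Acadsb, Echs1, Acox2, Acox3, Ehhadh, Decr2, Crat and Pdk4.

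The other genes of the pathway also had few calls. Of 24 other peroxisomal enzymes and transporters tested, 21 had a difference below 0 (58.7% of all features did) and the median was -0.16. At an unadjusted p under 0.05, 10 were lower and 0 higher, where 10.3% of all features were lower. In 11 of the 24 all NDMA animals lay below all controls, where 16.5% of all features did so. At an adjusted p under 0.05, 1 was lower and 0 were higher, where 0.476% of all features were lower. The 1 was Dao, the peroxisomal D-amino acid oxidase of the proximal tubule, which read 5.25, 5.54 and 5.43 in the controls and 4.91, 4.72 and 4.79 after NDMA (-0.60 ± 0.11, adjusted p = 0.0419 in limma). With the slide as a block Dao differed by -0.50 and did not pass (adjusted p = 0.342 in limma), nor did it pass in any of the 6 fits that left out 1 animal. Hao2, a peroxisomal hydroxyacid oxidase, differed by -0.39 (adjusted p = 0.117 in limma).

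Of 16 peroxin genes, which build peroxisomes, 0 passed in limma and the median was -0.10. At an unadjusted p under 0.05, 2 of the 16 were lower and 0 higher, near the share of all features that were lower (10.3%). Pex11a, a PPAR alpha target that promotes peroxisome division, read 5.26, 5.26 and 5.69 in the controls and 4.63, 4.66 and 4.97 after NDMA (-0.65 ± 0.16, adjusted p = 0.103 in limma). Pex10, a ubiquitin ligase of peroxisomal import, differed by -0.29.

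Of 18 other mitochondrial acyl-CoA enzymes 0 passed in limma and the median was -0.16. At an unadjusted p under 0.05, 6 of the 18 were lower and 0 higher, where 10.3% of all features were lower. Pccb and Pcca, the subunits of propionyl-CoA carboxylase, differed by -0.34 and -0.35, and Ivd, a dehydrogenase of leucine breakdown, by -0.37. All 6 ketone body enzymes had differences below 0, with a median of -0.34. None of them passed in limma, and 4 were lower at an unadjusted p under 0.05, among them Oxct1, which activates ketone bodies for use as fuel (-0.45, adjusted p = 0.102), and Bdh2, at -0.43.

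Of 19 genes of fatty acid uptake, activation and carnitine transport 1 was higher at an adjusted p under 0.05 and 0 were lower, with a median of -0.09. At that threshold 2.52% of all features were higher and 0.476% lower. Acsl5, an acyl-CoA synthetase, rose from 0.80, 0.82 and 0.72 in the controls to 1.29, 1.51 and 1.40 after NDMA (0.62 ± 0.09, 1.54-fold, adjusted p = 0.0221 in limma). Cpt1c, a relative of Cpt1a that is best known from the brain, differed by 0.64 (adjusted p = 0.0773), and Acsm5, a medium-chain synthetase, by -0.48 (adjusted p = 0.107). The probes of Acsm5 disagreed, and the mean over its 3 probes differed by 0.53. With the slide as a block Acsl5 differed by 0.52 and did not pass (adjusted p = 0.211 in limma). Of the 6 fits that left out 1 animal, 1 still called Acsl5.

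Among 18 transcription factors and coactivators 0 passed in limma, with 2 lower and 1 higher at an unadjusted p under 0.05. Of all 31915 features, 3275 were lower and 2713 higher at that threshold, so these counts lie near the shares of all features. Ppara read 0.02, 0.63 and 0.23 in the controls and -1.25, -0.52 and -0.94 after NDMA. The groups did not overlap, and the difference of -1.20 ± 0.23 had an adjusted p of 0.0542 in limma, with 0.0230 to 0.185 over the alternatives. Pparg, the relative that drives fat storage, differed by 0.96, with all NDMA animals above all controls, and Esrrg, an estrogen-related receptor of oxidative tissues, by -0.24. Ppargc1a, the coactivator PGC-1 alpha, differed by 0.02 (adjusted p = 0.962). Blocking on the slide turned the Ppargc1a difference to -0.14.

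Of 20 other PPAR alpha target genes 1 was higher and 0 were lower at an adjusted p under 0.05, with a median of -0.14. At that threshold 2.52% of all features were higher. Ucp2, a mitochondrial carrier that leukocytes also express, read -0.84, -0.69 and -0.40 in the controls and 0.21, -0.01 and 0.29 after NDMA (0.80 ± 0.14, adjusted p = 0.0409 in limma). Cyp4a2, a fatty acid omega-hydroxylase of the kidney, differed by -0.26 and belongs to a family of close relatives. With quantile normalisation the Cyp4a2 difference was -0.0039. Of 18 genes of fatty acid synthesis and storage 1 was lower and 0 were higher at an adjusted p under 0.05, where 0.476% of all features were lower. In that list 9 differences were below 0 and 9 above, with a median of -0.06. Mgll, monoacylglycerol lipase, read 5.15, 5.47 and 5.25 in the controls and 4.60, 4.31 and 4.51 after NDMA (-0.82 ± 0.12, adjusted p = 0.0262 in limma), whereas Dgat1 and Me1 differed by -0.27 and -0.33. Ucp2 and Mgll each passed in 1 of the 6 fits that left out 1 animal, and neither passed once the slide was a block in the fit (limma adjusted p = 0.252 and 0.244).

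Markers of the cell types of the cortex were read on the same arrays. All 16 proximal tubule markers had differences below 0, with a median of -0.27 (-0.12 with quantile normalisation). At an unadjusted p under 0.05, 10 of the 16 were lower, where 10.3% of all features were. In 11 of the 16 all NDMA animals lay below all controls, where 16.5% of all features did so. At an adjusted p under 0.05, 1 of them was lower, where 0.476% of all features were. It was Lrp2, the endocytic receptor megalin (-0.57 ± 0.10, adjusted p = 0.0448 in limma). Lrp2 passed in none of the 6 fits that left out 1 animal and not with the slide as a block. Slc13a3 and Slc22a6, transporters of dicarboxylates and organic anions, differed by -0.39 and -0.37. The medians of the deviations from the control mean over all 16 proximal tubule markers were -0.18, -0.39 and -0.26 in NDMA animals 1 to 3. NDMA animal 2 was also the lowest of the NDMA animals for 20 of the 33 members. The summed level of these markers, as a multiple of each array's 75th percentile, ran from 3676 to 4003 in the controls and from 2896 to 3380 after NDMA. All 11 macrophage markers and all 9 T cell markers tested had differences above 0, with medians of 1.15 and 1.31. At an adjusted p under 0.05, 10 of the 11 and 8 of the 9 were higher, where 2.52% of all features were. Among those called were Cd68 (1.48), C1qb (1.33), Lyz2 (1.23), Ptprc (1.29), Tyrobp (1.07) and Clec4a3 (1.15) of the first list. Of the second list they included Cd247 (1.96), Cd3g (2.26), Cd3e (2.51), Cd2 (1.59), Cd3d (1.29) and Zap70 (1.20). With the slide as a block none of these 12 genes passed (adjusted p in limma from 0.0536 for Cd247 to 0.212 for Cd2), while their differences stayed between 0.99 and 2.35. Without 1 animal Cd2 passed in 2, Cd3e in 3 and Lyz2 in 5 of 6 fits, and the other 9 genes passed in all 6. Cd3e was well above background on only 2 of the 3 control arrays, so it passed the filter on dim probes through the NDMA group alone. With normexp background correction and the 75th percentile Cd3e differed by 1.05 and Cd2 by 0.79, and the T cell median was 1.03. The summed macrophage level was at most 142 in the controls and ran from 271 to 298 after NDMA, and the summed T cell level ran from 1.93 to 2.58 and from 5.76 to 6.66. Cd163, a listed macrophage marker that was not among the 11 tested, was well above background on some control array but on no NDMA array. Of 7 fat cell markers 0 passed in limma, with 5 differences above 0 and 2 below, the lowest at -0.36. The median over them was 0.29, but 0.04 with normexp and the 75th percentile and -0.06 with the slide as a block. Only 1 of them, Cfd, was higher at an unadjusted p under 0.05 (1.45). Adipoq differed by 0.29 and Fabp4 by 0.98 (interval -1.24 to 3.20, and -0.51 when the slide was a block). The leptin gene Lep was not well above background on any array. The summed level of the fat cell markers ran from 1.96 to 2.85 in the controls and from 2.65 to 3.48 after NDMA. The other cell type lists had no calls in limma, with medians of -0.15 for thick limb and distal tubule, -0.18 for collecting duct, 0.15 for podocytes and -0.08 for endothelium, and 2 collecting duct genes, Aqp3 (-0.43) and Aqp2 (-0.46), but 0 of the others at an unadjusted p under 0.05. Named by the same rule, Slc26a4 differed by -0.32, Kcnj1 by -0.15, Cldn16 by -0.17, Umod by -0.21, Wt1 by 0.25, Podxl by 0.22, Kdr by -0.20, Pecam1 by -0.09 and Emcn by -0.08. Several of these rested on 1 animal or on the slide: Umod ran from -0.38 to -0.02 and Cldn16 from -0.27 to -0.05 without 1 animal, while a slide block put Slc26a4 at -0.05, Aqp2 at -0.29, Emcn at -0.02, Kdr at 0.02 and Pecam1 at 0.04. The part of these cell types in the differences of the oxidation genes was not tested.

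Promoter sequences, from 250 bases before to 50 after the start site, were present for 28 of the 33 members in the RefSeq table for GRCr8; Cpt1b, Acadl, Acaa2, Decr1 and Vnn1 had no entry. PPAR alpha binds, with its partner RXR, a pair of AGGTCA hexamers spaced by 1 base. The consensus AGGTCANAGGTCA, on either strand, was in 0 of the 28 promoters and in 0.0538% of all 33469, and the looser AGGNCANAGGNCA in 0 and 0.415%. Both pairs are so rare over all promoters that a count of 0 among 28 says little. Sequence outside these windows was not searched. A single AGGTCA hexamer, counted on both strands and also within pairs, was in 6 (21.4%, against 16.2% of all), namely Acadvl, Echs1, Eci1, Eci2, Hadhb and Hsd17b4. A GC box, GGGCGG on either strand, was in 21 (75%, against 33.1% of all). The 250 bases before the start sites of Crat, the member nearest the threshold, and of Echs1, which had the lowest difference among the mitochondrial genes without overlap of the groups, are shown as examples with and without this hexamer, with AGGTCA hexamers and GC boxes on either strand in capitals (Crat GRCr8 chr3:34087100-34087349 and Echs1 GRCr8 chr1:204333507-204333756, both written along the reverse strand, 5′ to 3′ towards the gene).
Crat: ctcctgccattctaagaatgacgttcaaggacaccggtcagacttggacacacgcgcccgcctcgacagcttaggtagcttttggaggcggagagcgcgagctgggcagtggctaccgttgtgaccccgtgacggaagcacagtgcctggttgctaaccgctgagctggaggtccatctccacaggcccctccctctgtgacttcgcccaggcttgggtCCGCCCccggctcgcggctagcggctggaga
Echs1: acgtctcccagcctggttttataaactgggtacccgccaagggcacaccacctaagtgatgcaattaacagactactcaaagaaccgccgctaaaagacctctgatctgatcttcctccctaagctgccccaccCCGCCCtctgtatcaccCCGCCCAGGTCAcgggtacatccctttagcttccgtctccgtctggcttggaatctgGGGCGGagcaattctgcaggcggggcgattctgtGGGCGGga
The Echs1 sequence holds 4 GC boxes and an AGGTCA hexamer that abuts one of them, starting at position -93 from the start site, and the Crat sequence holds a single GC box and no such hexamer. Both genes had lower values in all 3 NDMA animals than in any control.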

How the data were processed

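The submitters' processing notes name Agilent Feature Extraction 10.7, and the scanner file headers give 10.7.1.1. Per the file headers, the authors' deposited intensity is a Cy3 signal from which background and spatial trend were removed, unscaled from array to array. A value table by the authors gives a ratio, which equalled the processed intensity divided by the 75th percentile of its array (largest log2 difference 0.00174; column medians 0.110 to 0.115).

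Here log2 intensities were centred on the 75th percentile of the 61657 non-control probes of each array, with outlier spots missing. The filter kept 43118 probes that all 3 arrays of some group measured well above background, and a gene was read by its brightest probe (31915 features). Probes were named by accession through RefSeq (GRCr8); 27348 of 29123 NM accessions matched. The array annotation names build rn4, so array coordinates are not given. NDMA was set against control in limma 3.58.1 under R 4.3.3 (lmFit and eBayes, two-sided, Benjamini-Hochberg over all features, threshold 0.05), and every member probe in a fit over all kept probes. The fit was tested on simulated data with no slide effect and with changes larger than the differences of the members. That test does not show whether differences as small as theirs would be found. An exact permutation test of 3 against 3 cannot go below p = 0.1, so none is given. The number of arrays limits the precision.

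Replicates are separate animals, per the series' design text. The members, their compartments and the other lists were chosen with earlier results of these data known. All 33 members are named. From the other lists the named genes are those past the threshold (up to 6 by smallest p), or the 3 with the smallest p where fewer than 3 passed, with Ppara and Ppargc1a always; a few genes that this rule selects are not reported here. Acaa1b, Cubn, Slc34a1, Pvalb, Cd163 and Lep were named after their values were seen.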

Additional observations from a re-analysis of the deposited data

How the results depend on the processing

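No member passed under 16 of 19 alternatives run in limma, and under the other three (normexp with the 75th percentile, the mean over the probes of a gene, and a trended and robust variance) 1 member passed, Crat. Over all features the count of 957 was 371 without a filter on dim probes, 67 with the slide as a block, 0 on slide 1 alone (3502 at an unadjusted p under 0.05) and from 364 to 749 without 1 animal. The mitochondrial median of -0.22 was -0.16 with normexp, -0.0921 with normexp and quantile normalisation, -0.12 with quantile normalisation, -0.15 with the slide as a block, -0.15 on slide 1 alone, and from -0.22 to -0.17 without 1 animal. The peroxisomal median moved by less than the spread between animals in all alternatives. Leaving out Eci2, or Etfa, Etfb and Etfdh, moved no median beyond that spread. The spot mean was not used, since the files hold the spot median, which served for normexp.

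Same-numbered animals of the groups had correlations of 0.04, -0.05 and 0.03 between their deviations from the group means, and not every animal correlated best with its own number. With so few arrays per group these correlations cannot decide whether the replicate numbers pair the animals, and the main fit used no pairing. With the replicate number as a block 351 features and 0 members passed, and no member changed its side of the threshold.

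Some members changed sign, among them Acox2 (0.22) and Cpt1a (-0.14), and none of them passed the threshold on either side. With normexp these were Acadl (0.0584), Acox2 (-0.14) and Vnn1 (-0.00046); with normexp and quantile normalisation Acadl (0.13), Acox2 (-0.0466) and Acsl1 (0.0221); with quantile normalisation Acadl (0.0431), Hadha (0.0285) and Acsl1 (0.00095); with the median of each array Hadhb (-0.0059); and with the mean over probes Acot2 (-0.0525). With the slide as a block and on slide 1 alone, both resting on NDMA animal 1, they were Cpt1a (0.15), Acadl (0.13), Acox2 (-0.0070), Acsl1 (0.0940), Acot1 (0.0764) and Angptl4 (-0.10). Without 1 animal the differences ran from -0.39 to 0.27 for Cpt1a, -0.20 to 0.0011 for Cpt1b, -0.14 to 0.0142 for Acadl, -0.0607 to 0.0049 for Hadha, -0.24 to 0.15 for Hadhb, -0.0333 to 0.14 for Acot2, -0.25 to 0.54 for Acox2 and -0.21 to 0.0143 for Acot1. The cause was not tested.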
